A study of Homo sapiens with 6 samples.

Results

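The HK-2 line was made from human kidney epithelium of the proximal tubule and immortalised, and its untreated cultures are described here from 3 RNA-seq libraries out of the 6 in the series. The 3 were taken by their treatment label, untreated, and no library of treated cells was used. Their titles add the word control, a 24 h time point and an abbreviation, CSE, that no label spells out. Per the labels, total RNA came from cells kept in serum-free keratinocyte medium with bovine pituitary extract and recombinant EGF, plated 24 h earlier and used close to confluence. As a model it has limits: the line grew out from a single cell, it was immortalised with the E6 and E7 genes of a papillomavirus, and no other cell of the kidney is present. Nothing in the labels says that the 3 replicates were separate cultures, so the spread between them may be technical.

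The proximal tubule is the first stretch of the nephron after the glomerulus. Its cells take back glucose, amino acids, phosphate, bicarbonate and small proteins from the filtrate through an apical brush border, and pass them to the blood across a basolateral membrane energised by the sodium pump. They also secrete organic anions and cations, make glucose, and activate vitamin D. Injured or cultured tubule cells are known to lose part of this equipment and to express adhesion, matrix and injury genes instead. The viral protein E7 binds RB.

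Levels are the deposited FPKM, the fragments counted on a gene per kilobase of its length and per 1000000 fragments counted in the library, so that levels of different genes compare per length. From the size of the smallest steps in the values, the libraries held 23493829, 24308790 and 24815378 counted fragments in replicates 1 to 3. A single fragment on a gene of 1 kb was worth 0.0403 to 0.0426 FPKM. A gene is called detected here where it reached 1 FPKM in each of the 3 libraries. By that rule 11448 of 38126 gene IDs were detected (30%), and 10342 of 17736 protein-coding genes (58.3%), which is the background for every list below. The median protein-coding gene stood at 2.24 FPKM, 3598 reached 10 FPKM in each library and 241 reached 100 FPKM. Values of a gene whose exons overlap those of another gene may be too low, because fragments there may not have been counted, and the share of exon bases that a gene has to itself is given where it matters.

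Untreated HK-2 cells devoted their most abundant nuclear protein-coding transcripts to the cytoskeleton, the matrix, iron storage, translation and glycolysis. Mitochondrially encoded genes, which supply subunits of the respiratory chain and the ribosomal RNAs of the organelle, held 29.9%, 25.8% and 31.4% of all FPKM in replicates 1 to 3 (29 ± 2.89%, SD, n = 3). Because these genes are short, they held 7.83 ± 0.962% of the fragments. The ribosomal RNA gene MT-RNR2 stood at 10363, 9597 and 11448 FPKM, and the highest protein genes were the cytochrome oxidase subunit MT-CO1 with 9874, 8176 and 10109 FPKM and the complex I subunit MT-ND4 with 8673, 7192 and 9139 FPKM. Replicate 2 was the lowest library for all 3. Genes of ribosomal proteins held 4.09 ± 0.182% of FPKM and genes of long noncoding RNAs 1.61 ± 0.146%. The 10 highest genes of all kinds took 23.6 ± 2.31% of FPKM, and the 10 highest nuclear genes of any type took 8.86 ± 0.185% of nuclear FPKM.

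Nuclear protein-coding genes are ranked here, and noncoding nuclear genes were given no place. Thymosin beta 10, a small protein that binds actin monomers, had the highest transcript among them. TMSB10 (ENSG00000034510, chromosome 2, 84905625 to 84906675 on GRCh38) stood at 2850.3, 3261 and 2924 FPKM. Fibronectin, the glycoprotein that cells deposit as a first matrix, followed, and FN1 (ENSG00000115414, chromosome 2, 215360440 to 215436172) stood at 2621, 2471 and 2422 FPKM. Its transcript is long, so that FN1 alone took 4.55%, 4.29% and 4.21% of all fragments in replicates 1 to 3. The cytoplasmic actins ACTB (2061 ± 98.5 FPKM) and ACTG1 (1520.4 ± 38.2 FPKM), ferritin light chain FTL (1859 ± 41.5 FPKM), the elongation factor EEF1A1 (1749 ± 11.7 FPKM) and the glycolytic enzyme GAPDH (1139 ± 59.1 FPKM) came next. Ferritin heavy chain FTH1, with 37.6% of its exon bases to itself, was listed at 86.9 ± 3.53 FPKM. Aldose reductase AKR1B1, which turns glucose into sorbitol, stood at 759, 766 and 732 FPKM. Osteopontin SPP1, a secreted phosphoprotein of injured tubules, stood at 684, 685 and 711 FPKM. From TMSB10 to SPP1, the ranges of neighbouring genes over the 3 libraries did not overlap. These 9 places in the order of nuclear protein-coding genes thus held in every library.

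From the 10th place on, each gene's range overlapped that of the next, and the order was not resolved. These places held the chaperones HSP90AB1 (622 FPKM), HSP90AA1 (411 FPKM) and calreticulin CALR (596 FPKM), the elongation factor EEF2 (563 FPKM) and the RNA-binding protein PABPC1 (500.3 FPKM). They also held the lysosomal proteins prosaposin PSAP (526 FPKM) and cathepsin Z, encoded by CTSZ (398 FPKM), and the glycolytic enzymes ENO1 (514 FPKM) and PGAM1 (464 FPKM). The cytoskeleton added tubulin TUBB (498 FPKM), thymosin TMSB4X (453 FPKM) and the actin crosslinker FLNA (438 FPKM). The matricellular protein CCN1, a target of YAP and TAZ, stood at 436 ± 16.4 FPKM, and the metal-binding protein MT2A at 469 ± 21.8 FPKM. The ribosomal protein genes in these places were RPS2, RPL8, RPL7A, RPS12, RPL13A and RPL41, between 386 FPKM and 486 FPKM. HSP90AA1 had the widest spread of these genes, with 355, 429 and 449 FPKM, replicate 1 being the lowest.

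**Figure D1:**
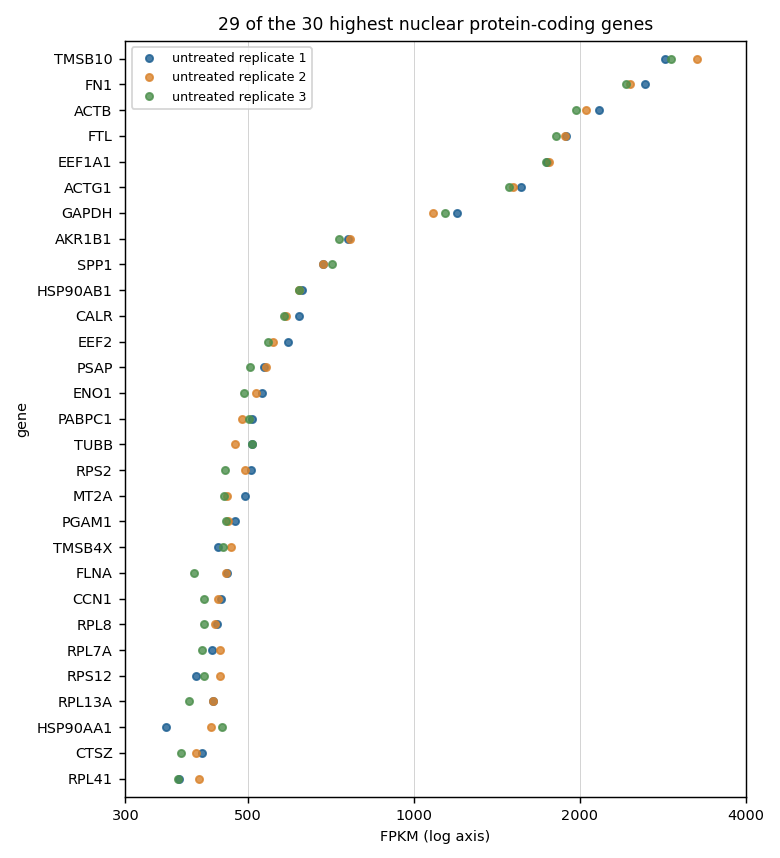
FPKM (log axis) of 29 of the 30 nuclear protein-coding genes with the highest mean, each point being 1 untreated library. The 9 genes from TMSB10 to SPP1 are separated from their neighbours in every library, and the points of the lower genes overlap from gene to gene.

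Untreated HK-2 cells expressed a part of the genes that define the proximal tubule in the kidney. Of the defining genes, 5 of 8 basolateral transporters and 4 of 7 brush border genes were detected, but 1 of 8 apical transporters, 3 of 9 metabolic genes and 1 of 3 endocytosis genes. Over the full lists, 7 of 11 members were detected for endocytosis, 5 of 17 for the brush border and its peptidases, 5 of 30 for apical transporters, 10 of 18 for basolateral transporters and 8 of 32 for metabolism, beside 58.3% of all protein-coding genes. Both giant receptors that take up filtered protein were near 0. Megalin, encoded by LRP2 (ENSG00000081479, chromosome 2, 169127109 to 169362685), had 2, 0 and 0 fragments in replicates 1 to 3, a mean of 0.00176 FPKM. Its partner cubilin, CUBN, stood at 0.0257, 0.0465 and 0.0334 FPKM, and the adaptor AMN, which carries cubilin to the surface, at 0.207 FPKM. Adaptors and scaffolds of the same route were present: DAB2, which binds the megalin tail, stood at 6.92, 6.92 and 7.10 FPKM. The scaffold PDZK1, which anchors apical transporters, stood at 20.8 ± 1.39 FPKM, its membrane partner PDZK1IP1 at 31.6 ± 1.93 FPKM and NHERF1, another scaffold of the brush border, at 26.9 ± 0.759 FPKM.

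Among brush border peptidases, dipeptidyl peptidase 4 (DPP4) stood at 38.5, 38.9 and 42.7 FPKM and aminopeptidase A (ENPEP), which acts on angiotensin II, at 28.1, 29.97 and 28.9 FPKM. Neprilysin, encoded by MME, was just past the threshold with 1.53, 1.54 and 1.68 FPKM. Gamma-glutamyltransferase GGT1, which starts the breakdown of glutathione, straddled it with 0.710, 1.04 and 0.746 FPKM. Aminopeptidase N (ANPEP) stood at 0.0700, 0.0676 and 0.0828 FPKM, a level that separates it from DPP4 and ENPEP in every library. The peptidase ACE stood at 0.0441 FPKM. Ezrin (EZR), which ties microvilli to actin, stood at 225 ± 7.57 FPKM, whereas the microvillar protein villin (VIL1, 56% of exon bases its own) stood at 0.0216 FPKM and the protocadherins CDHR2 and CDHR5 at 0.132 FPKM and 0.209 FPKM. The kidney oxygenase MIOX, which breaks down inositol, stood at 6.02, 6.02 and 6.46 FPKM.

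The apical transporters were low as a group, with 14 of 30 below a mean of 0.1 FPKM. The 5 detected became 8 at a threshold of 0.5 FPKM and 12 at 1 TPM (FPKM rescaled to a sum of 1000000 in each library). The low-affinity glucose carrier of the early tubule, SGLT2 (SLC5A2, 59.3% of exon bases its own), stood at 0.124, 0.166 and 0.0902 FPKM, and the phosphate carrier SLC34A1 at 0.141, 0.218 and 0.125 FPKM. The sodium-proton exchanger SLC9A3, with 43.3% of exon bases its own, stood at 0.0302, 0.117 and 0.0358 FPKM. Water channel AQP1 stood at 0.124, 0.0120 and 0.0469 FPKM, and the neutral amino acid carrier SLC6A19 was at 0 FPKM in each library. Each of these 5 genes rested on 0 to 24 fragments a library, and their order was not resolved at this depth. The subunit of the cystine carrier SLC3A1 (45.4% of exon bases its own) stood at 0.0356 FPKM and the cation extruder SLC47A1 at 0.00496 FPKM. The members past the threshold were the efflux pumps ABCC4 (11.1, 11.2 and 10.7 FPKM) and ABCB1 (6.46, 6.48 and 6.84 FPKM), the anion exchanger SLC26A6 (3.36, 3.81 and 3.57 FPKM) and the phosphate and urate carriers SLC17A1 (2.33, 3.06 and 3.11 FPKM) and SLC17A3 (2.53, 2.74 and 3.22 FPKM).

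On the basolateral side the beta subunit of the sodium pump, ATP1B1, stood at 61.9, 58.8 and 62 FPKM. The glucose carrier GLUT2, encoded by SLC2A2 (ENSG00000163581, chromosome 3, 170996348 to 171026750), through which the tubule hands glucose to the blood, stood at 38.6, 39.4 and 40.2 FPKM. The bicarbonate carrier SLC4A4 stood at 10.2, 10.2 and 9.99 FPKM and the potassium channel KCNJ16 at 25.2, 25.2 and 27.4 FPKM. The basic amino acid exchanger subunit SLC7A7 stood at 1.81, 2.06 and 1.64 FPKM. The uptake carriers for organic anions, OAT1 (SLC22A6, ENSG00000197901, chromosome 11, 62936385 to 62984983) and OAT3 (SLC22A8), were both at 0 FPKM in each library. Counting 3 fragments over the 3 libraries together as the limit of a count of 0, these zeros allow up to 0.0172 FPKM for SLC22A6 and 0.00484 FPKM for SLC22A8. The organic cation carrier OCT2 (SLC22A2) stood at 0, 0.0344 and 0.0269 FPKM. The pump subunit and the glucose and bicarbonate carriers of this membrane thus had means above 10 FPKM, and its SLC22 uptake carriers named here lay at or near 0. Its carrier of digoxin, SLCO4C1, was detected and is described with the drug carriers.

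Metabolic genes of the tubule split in the same manner. Glutathione peroxidase GPX3, which the kidney secretes into plasma, stood at 32.3, 29.4 and 29.4 FPKM, and the vitamin D hydroxylase CYP24A1, which degrades the active hormone, at 16, 16.9 and 16.9 FPKM. The enzyme that makes the active hormone, CYP27B1, stood at 0.156, 0.363 and 0.172 FPKM. Argininosuccinate synthase ASS1, by which the kidney makes arginine, stood at 12.5, 11.8 and 12.4 FPKM and the next enzyme of that route, ASL, at 9.88 FPKM. The glucuronosyltransferase UGT2B7 stood at 19.8 ± 0.413 FPKM and the ageing-related co-receptor klotho (KL) at 9.46 ± 0.224 FPKM. Creatine-pathway enzyme GATM was below the threshold at 0.679, 0.817 and 0.857 FPKM. The enzymes of glucose production were at or near 0, with PCK1 at 0.00393 FPKM, FBP1 at 0.00789 FPKM and G6PC1 at 0 FPKM in each library.

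**Figure D2:**
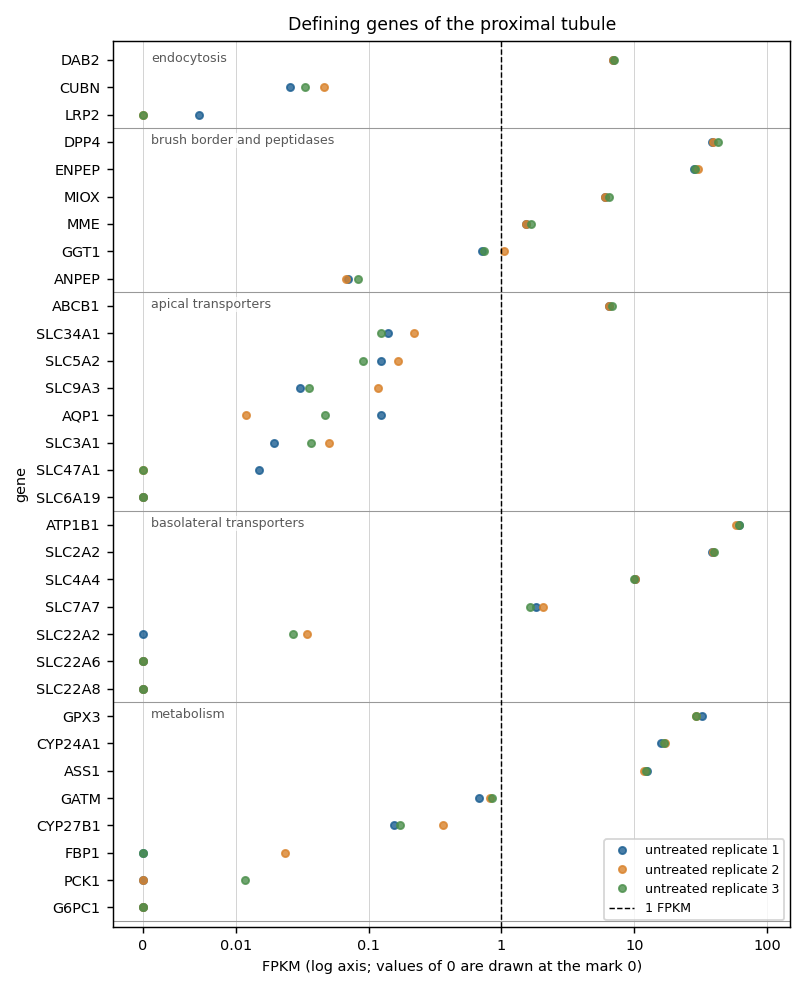
FPKM (log axis) of 32 of the 35 defining genes of 5 proximal tubule lists in the 3 untreated libraries, with a dashed line at 1 FPKM and values of 0 drawn at a mark of their own. Basolateral ATP1B1 and SLC2A2 and the peptidases DPP4 and ENPEP lie above 28 FPKM, while LRP2, SLC22A6, SLC22A8, SLC6A19 and G6PC1 lie at or next to 0.

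The stretch of DNA just upstream of the start differed in CG content with the level of the gene. In 13864 protein-coding genes with a promoter in the RefSeq table (GRCh38.p14), the 250 bases before the start held a median of 4 CG dinucleotides where the gene was at 0 in every library, 8 where its mean was above 0 and below 0.1 FPKM, 16 from 0.1 to below 1 FPKM, 21 from 1 to below 10 FPKM, 22 from 10 to below 100 FPKM and 23 at 100 FPKM or more. The share of promoters with at most 5 CG was 56.8% in the lowest class and 6.25% in the highest. The letters TATAAA, on either strand, stood in 18.6% of promoters of genes at 0, in 4.48% of those from 1 to below 10 FPKM and in 8.85% of those at 100 FPKM or more. A match is a description of letters and not of a bound factor. The upper quartile was 12 CG among genes at 0 and the lower quartile 16 CG among genes at 100 FPKM or more. The starts are those of RefSeq, so that exons of the Ensembl gene models reach into some of these windows, and promoters of the same gene family may share sequence.

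Below are the 120 bases before the start of 6 genes, 5′ to 3′ along the gene with each CG in capitals. They are shown because they pair abundant genes with genes at or near 0 within both kinds of promoter. TMSB10 and FN1 are abundant with 31 and 32 CG in their 250 bases. SPP1 and HAVCR1, the injury genes, are abundant with 3 and 2. LRP2 is near 0 with 21, and SLC22A6 is at 0 with 0. The printed stretch of LRP2 lies wholly within the span of its Ensembl gene, and those of the other genes overlap theirs in part.
TMSB10, chr2:84905536-84905655, plus strand: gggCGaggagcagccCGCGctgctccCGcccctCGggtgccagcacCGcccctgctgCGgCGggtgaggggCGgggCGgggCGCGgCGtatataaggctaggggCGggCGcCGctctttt
FN1, chr2:215436069-215436188, minus strand: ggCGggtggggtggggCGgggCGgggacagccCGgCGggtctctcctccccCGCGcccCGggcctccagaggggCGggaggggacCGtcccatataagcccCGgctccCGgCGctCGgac
SPP1, chr4:87975594-87975713, plus strand: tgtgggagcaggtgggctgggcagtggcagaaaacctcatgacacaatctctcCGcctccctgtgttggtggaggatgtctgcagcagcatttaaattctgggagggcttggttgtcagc
HAVCR1, chr5:157059117-157059236, minus strand: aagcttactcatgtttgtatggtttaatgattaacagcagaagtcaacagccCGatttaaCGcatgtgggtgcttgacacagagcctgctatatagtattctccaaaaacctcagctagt
LRP2, chr2:169362535-169362654, minus strand: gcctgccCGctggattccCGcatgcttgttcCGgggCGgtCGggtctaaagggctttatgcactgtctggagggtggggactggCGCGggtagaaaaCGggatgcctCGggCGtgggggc
SLC22A6, chr11:62984968-62985087, minus strand: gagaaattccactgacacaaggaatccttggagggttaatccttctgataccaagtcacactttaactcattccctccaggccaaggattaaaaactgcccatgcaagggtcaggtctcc

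**Figure D3:**
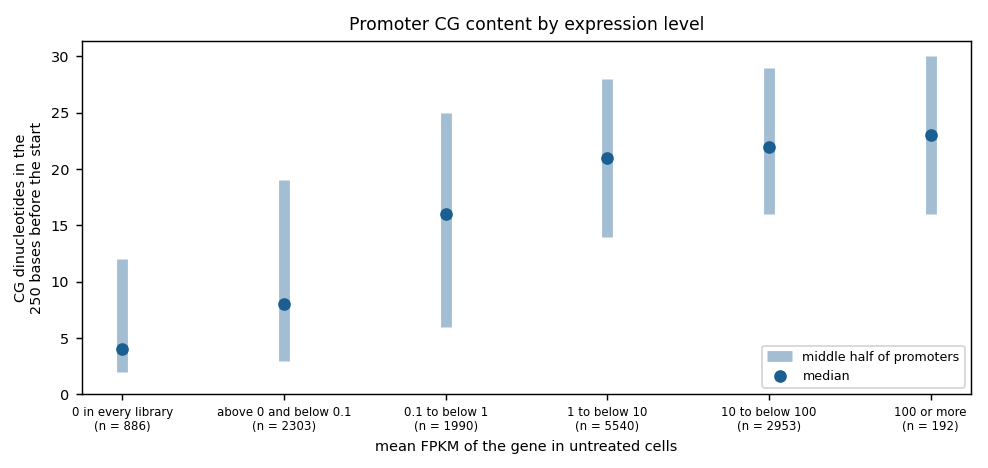
Number of CG dinucleotides in the 250 bases before the start, by class of mean FPKM in untreated HK-2 cells, with the median as a point and the middle 50% of promoters as a bar. The median goes from 4 in genes at 0 to 23 in genes at 100 FPKM or more, and the bars of neighbouring classes overlap.

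Transcription factors of the kidney lineage were expressed in part. PAX8, which marks the nephron lineage, stood at 64.8, 64.9 and 61.5 FPKM. LHX1 stood at 4.99, 5.39 and 5.27 FPKM and SALL1, a factor of nephron progenitors, at 37.2 ± 1.07 FPKM, while SOX4 reached 66.8 ± 3.09 FPKM and MAF 10.4 ± 0.576 FPKM. HNF4A, a nuclear receptor of mature proximal tubule cells that drives brush border genes, was near 0 with 0, 0 and 0.00551 FPKM. PAX2 stood at 0.0242 FPKM and the progenitor factor SIX2 at 0.0189 FPKM. In all, 14 of 30 lineage factors were detected.

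Genes of the later nephron were low in these cells. Of 17 genes of the thin and thick ascending limb, 1 was detected (3 at 0.5 FPKM, 4 at 1 TPM), the raft protein MAL at 7.57 ± 0.110 FPKM. Uromodulin (UMOD), the most abundant urinary protein, stood at 0.00394 FPKM, the claudin CLDN16 at 0.879, 0.861 and 1.01 FPKM and the cotransporter SLC12A1 was at 0 FPKM in each library. In the list of the distal convoluted and connecting tubule 4 of 14 were detected, namely WNK1 (32.1 FPKM), ATP2B1 (14.2 FPKM), STK39 (8.19 FPKM) and TRPM7 (5.41 FPKM), which many tissues express. The defining genes SLC12A3 (0.0402 FPKM), CALB1 (0.00391 FPKM), TRPM6 (0.00463 FPKM) and TRPV5 (at 0) were not. Among principal cell genes 3 of 13 were detected: the kinase SGK1 stood at 12.5 ± 0.244 FPKM, the sodium channel subunit SCNN1A at 6.16, 6.09 and 5.03 FPKM and the mineralocorticoid receptor NR3C2 at 2.86 ± 0.231 FPKM. The water channel AQP3 (0.133 FPKM), the vasopressin receptor AVPR2 (0.296 FPKM), HSD11B2 (0.192 FPKM), which inactivates cortisol, and SCNN1G (at 0) stood below the threshold. Of 10 intercalated cell genes 1 was detected, carbonic anhydrase CA2 at 26.9 ± 2.26 FPKM, while SLC26A4 (0.0355 FPKM), SLC4A1 (0.0105 FPKM) and ATP6V1B1 (0.0104 FPKM, 37.6% of exon bases its own) were not.

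The lists of podocytes and of the parietal epithelium had more detected members. Of 16 podocyte genes 7 were detected, led by the actin-binding ACTN4 (115 ± 4.96 FPKM), CD2AP (41.2 ± 3.94 FPKM) and NES (24.6 ± 1.69 FPKM), which are not limited to podocytes, and by synaptopodin SYNPO (13, 12.3 and 12.7 FPKM). Of 4 defining podocyte genes with values 1 was detected, SYNPO. The others, NPHS1 (0.00260 FPKM), WT1 (0.00168 FPKM) and PODXL (0.548 FPKM), stood below the threshold. Among genes of parietal and scattered progenitor-like tubular cells 12 of 18 were detected. The surface protein CD24 stood at 379, 353 and 389 FPKM, keratin KRT19 at 215, 205 and 189 FPKM, the tight junction protein CLDN1 at 132, 131 and 131 FPKM and vimentin (VIM) at 103, 101 and 108 FPKM. The calcium-binding S100A6 stood at 254 ± 12.1 FPKM, the adhesion receptor VCAM1 at 5.12, 5.10 and 5.16 FPKM and KRT7 at 1.68, 1.80 and 1.66 FPKM. CD133, encoded by PROM1, stood at 0.0630, 0.105 and 0.00542 FPKM and SOX9 at 0.379, 0.533 and 0.492 FPKM. CD24 and PROM1, which are used together as a marker, were thus far apart in level.

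Markers of other cell types gave few values past the threshold, 9 of 64 in all. The line grew out from a single cell, and bulk RNA does not show whether all or some of its cells held these transcripts. No leukocyte gene of 12 was detected (2 at 0.5 FPKM or at 1 TPM), with CSF1R at 0.663 FPKM, CD14 at 0.694 FPKM, and PTPRC at 0. Among 11 endothelial genes EGFL7 (3.16 FPKM) was detected, while PECAM1 (0.0448 FPKM), VWF (0.0292 FPKM), CDH5 (0.0204 FPKM) and TEK (0.00581 FPKM) were near 0. Fibroblast, pericyte and mesangial genes gave 5 of 19 (10 at 1 TPM): the proteoglycan lumican (LUM) stood at 49.9, 53.8 and 55.4 FPKM, the collagen chain COL1A1 at 10.01, 10.8 and 9.46 FPKM, NOTCH3 at 7.98 FPKM, TAGLN at 3.48 FPKM and RGS5 at 1.88 FPKM. The partner chain COL1A2 stood at 0.0114, 0.00369 and 0.00722 FPKM, COL3A1 was at 0 FPKM in each library, and DCN (0.529 FPKM), ACTA2 (0.403 FPKM), PDGFRB (0.329 FPKM) and PDGFRA (0.00563 FPKM) were below the threshold. COL1A1 thus lay above COL1A2 in every library, although both chains form type I collagen. The synaptic gene SNAP25 (5.06, 5.15 and 5.28 FPKM) and tubulin TUBB3 (1.47 FPKM) were the 2 of 10 neuronal genes detected (1 at 2 FPKM, 4 at 1 TPM), with SYP at 0.0925 FPKM and RBFOX3 at 0.00834 FPKM. Of 12 hepatocyte genes the antitrypsin gene SERPINA1 was detected, at 35.1, 31.9 and 31.9 FPKM. The fibrinogen chain FGB straddled the threshold with 1.23, 1.05 and 0.937 FPKM, and the count was 2 without replicate 3, by the mean, at 0.5 FPKM and at 1 TPM. ALB stood at 0.00799 FPKM, and APOA1 and APOB at 0.

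**Figure D4:**
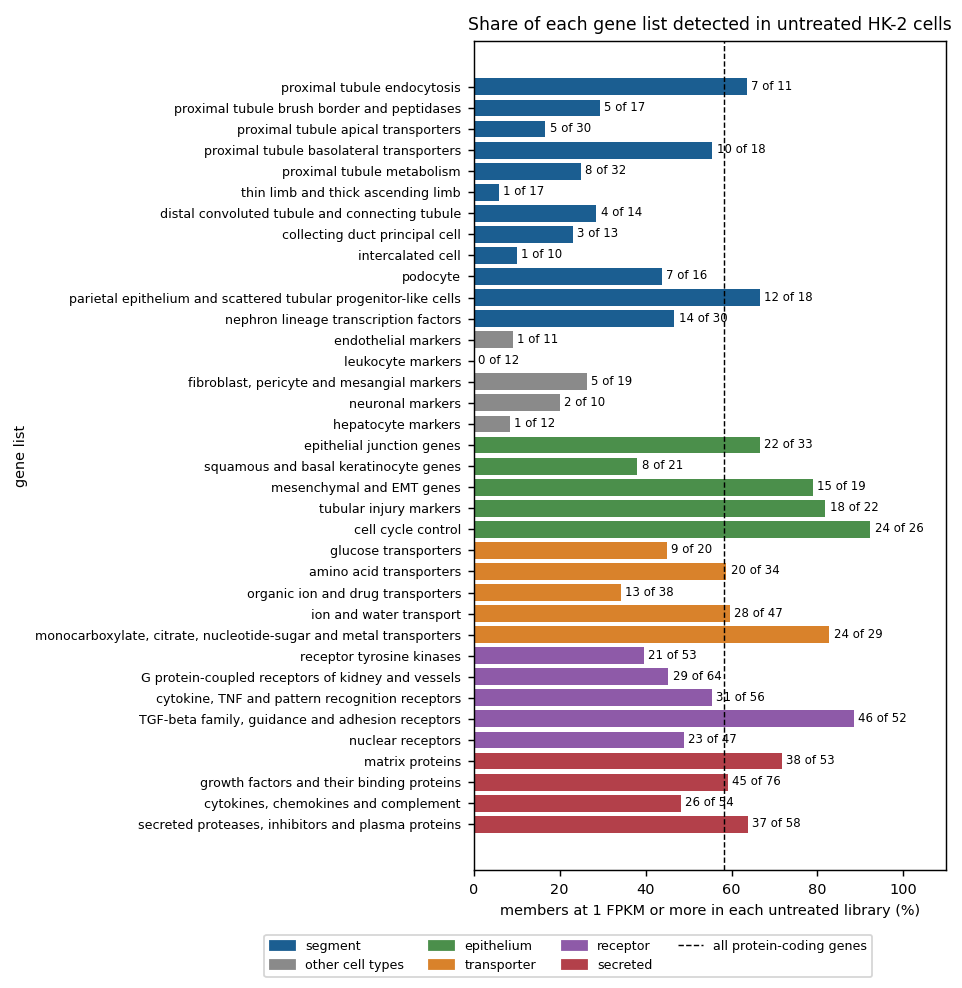
Share of each of 36 gene lists that reached 1 FPKM in each untreated library (horizontal axis, %), with the number of members beside each bar and a dashed line at the 58.3% of all protein-coding genes. The cell cycle list stands highest with 24 of 26 members, and the leukocyte list lowest with 0 of 12.

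Among cadherin transcripts, N-cadherin (CDH2) and the kidney cadherin CDH6 stood above E-cadherin (CDH1). CDH2 stood at 61.2, 60.3 and 60.2 FPKM and CDH6 at 58.3, 58.4 and 60.4 FPKM, while CDH1 stood at 0.398, 0.418 and 0.357 FPKM, so that every library had both former genes above the latter. CDH16, the kidney-specific cadherin, stood at 2.66, 2.69 and 2.53 FPKM and the epithelial adhesion protein EPCAM at 26.4, 27.6 and 26.7 FPKM. Claudin CLDN1 stood at 131 FPKM, and CLDN2, which forms the cation and water pore of the proximal tubule, at 10.01, 10.3 and 9.73 FPKM. The catenins CTNNB1 and CTNNA1 and the desmoglein DSG2 were at 39.8 FPKM, 35.9 FPKM and 36.3 FPKM. Desmoplakin DSP stood at 1.93, 1.90 and 1.74 FPKM and occludin OCLN at 0.592, 0.542 and 0.501 FPKM. The junction scaffold TJP1 stood at 23.2 ± 1.17 FPKM. In all, 22 of 33 junction genes were detected.

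Keratinocyte genes were checked because the medium is one made for keratinocytes. The squamous and basal markers KRT5, KRT6A and IVL were at 0 in each library and TP63 stood at 0.00563 FPKM. The 8 of 21 members detected included KRT80 (39.8 FPKM), S100A2 (27.3 FPKM) and LAMA3 (17.5 FPKM). Of 19 mesenchymal genes 15 were detected, all 7 defining ones among them. Beside FN1, the matrix proteins SPARC and TGFBI stood at 278 ± 4.70 FPKM and 224 ± 6.08 FPKM. The transcription factors SNAI1 (18.4, 19 and 21.2 FPKM), SNAI2 (13.2, 12.5 and 13.4 FPKM), TWIST1 (2.13, 2.76 and 2.50 FPKM) and ZEB1 (1.75, 2.19 and 2.31 FPKM), which repress epithelial genes, were all detected, while GRHL2, which sustains them, was at 0 FPKM in each library.

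Genes known from injured tubules gave 18 of 22 detected members with a median of 23.8 FPKM. The median was 2.24 FPKM for all protein-coding genes and 6.84 FPKM for the detected ones. The list was chosen with earlier results of these data known, and a state of injury was not tested. Kidney injury molecule 1, encoded by HAVCR1 (ENSG00000113249, chromosome 5, 157029413 to 157059119), a phosphatidylserine receptor nearly silent in healthy tubules, stood at 242, 229 and 237 FPKM. Osteopontin SPP1 was given above at 693 FPKM. The clusterin gene CLU stood at 21.7, 20.9 and 20.6 FPKM, annexin ANXA2 at 94 ± 0.164 FPKM, and the cytokines CXCL8 and IL6 at 84.3 ± 2.26 FPKM and 68.8 ± 0.770 FPKM. The integrin subunit ITGB6 stood at 2.20, 2.63 and 2.69 FPKM and lipocalin LCN2, another urinary injury marker, at 1.65, 1.37 and 1.09 FPKM. The chemokine CCL2 was low, at 0.0643, 0.0621 and 0.0609 FPKM. HAVCR1 and LCN2, both used as markers of tubular damage, therefore differed widely in level in these cells.

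Of the 36 lists, cell cycle genes had the highest share detected, with 24 of 26 members. The replication clamp PCNA stood at 135, 137 and 136 FPKM, MCM2 at 41.8, 39.3 and 37.5 FPKM, TOP2A at 49.2, 62.2 and 63.3 FPKM and the proliferation marker MKI67 at 32.1, 35.5 and 34.3 FPKM. The gene CDKN2A, which encodes the kinase inhibitor p16 and also ARF, stood at 21.2, 20.7 and 19.4 FPKM and the kinase inhibitor CDKN1A (p21) at 30.1, 28 and 29 FPKM. RB1 stood at 18.7, 20.1 and 20.6 FPKM, and MDM2 and GDF15 at 5.11 ± 0.176 FPKM and 20.2 ± 1.39 FPKM. Cyclin CCND1 stood at 9.54, 8.72 and 8.59 FPKM. The telomerase gene TERT stood at 0.0740, 0.0536 and 0.0263 FPKM, with 8, 6 and 3 fragments in replicates 1 to 3. Transcripts of the viral genes were not analysed here.

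On the transporter lists 94 of 168 genes were detected (56.0%), beside 58.3% of all protein-coding genes. Whole symbol families lay lower, with 50.3% of SLC, 48.9% of ABC and 44.4% of SLCO genes. Potassium channel genes gave 18.8% and aquaporins 0%. For glucose, GLUT1 (SLC2A1), the carrier of most cultured cells, stood at 55.1, 51.8 and 52 FPKM, GLUT3 (SLC2A3) at 17.3, 18.1 and 17.9 FPKM, and GLUT2 (SLC2A2), as above, at 39.4 FPKM. SGLT1 (SLC5A1) stood at 0.00773 FPKM, and 9 of 20 glucose carriers were detected. The inositol carrier SLC5A3 stood at 9.56 ± 0.491 FPKM. For amino acids, SLC38A2, a glutamine carrier, stood at 102, 108 and 109 FPKM, SLC1A5 at 42.9 ± 1.41 FPKM, SLC38A1 at 31.5 ± 1.13 FPKM and the leucine carrier SLC7A5 at 25.9 ± 0.972 FPKM with its heavy chain SLC3A2 at 15.3 ± 0.610 FPKM. SLC1A4 stood at 6.09 FPKM and the cystine exchanger SLC7A11 at 5.65 FPKM. All of these are widely expressed carriers, and they contributed to 20 of 34 detected.

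Of 38 drug and organic ion carriers 13 were detected, and 8 at 2 FPKM. The copper carrier SLC31A1 stood at 13.4, 13.5 and 14.6 FPKM, and the efflux pumps ABCC1, ABCC4, ABCC5 and ABCB1 at 12.8 FPKM, 11 FPKM, 10.8 FPKM and 6.59 FPKM. ABCC3 stood at 1.79 FPKM, and the breast cancer resistance protein ABCG2 at 0.509, 0.587 and 0.547 FPKM. The thyroid hormone and anion carrier SLCO4A1 stood at 5.98 ± 0.0538 FPKM, SLCO4C1, the kidney carrier of digoxin, at 3.10 ± 0.228 FPKM and the nucleoside carrier SLC29A1 at 5.95 ± 0.239 FPKM. The carnitine carrier SLC22A5 stood at 0.431 FPKM and the urate exchanger SLC22A12 at 0.00397 FPKM. The 4 efflux pumps thus stood above ABCG2 and above both SLC22 carriers.

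For ions and water, 28 of 47 listed genes were detected. ATP1B3, a further subunit of the sodium pump, stood at 59.8 ± 2.0 FPKM, the calcium pump ATP2B4 at 51.4 ± 0.460 FPKM and the phosphate carrier SLC20A1, which is also a retrovirus receptor, at 40.1, 41.4 and 40.2 FPKM. SLC20A2 stood at 3.71 FPKM, so both widely expressed phosphate carriers lay above the kidney carrier SLC34A1. The cotransporter SLC12A2 stood at 2.73 FPKM and the mechanosensitive channel PIEZO1 at 10.7, 10.5 and 9.62 FPKM. CFTR stood at 0.0354 FPKM. None of 10 aquaporins was detected (1 at 0.5 FPKM or at 1 TPM), the highest being AQP11 at 0.586, 0.773 and 0.891 FPKM, AQP3, AQP7 (0.0833 FPKM) and AQP4 (0.0788 FPKM). Among potassium channel genes 16 of 85 were detected (9 at 2 FPKM, 25 at 1 TPM), led by KCNJ16, the silent subunit KCNS3 (16.5 ± 0.266 FPKM), KCNK3 (4.81 ± 0.435 FPKM) and KCNK1 (4.15 ± 0.201 FPKM).

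Carriers of monocarboxylates, nucleotides and metals were detected in 24 of 29 cases. The mitochondrial ADP/ATP carriers SLC25A6 and SLC25A5 stood at 170.0 ± 11.1 FPKM and 163 ± 2.66 FPKM and the phosphate carrier of mitochondria SLC25A3 at 44.9 ± 0.894 FPKM. The lactate carrier MCT1 (SLC16A1) stood at 41.3, 42.9 and 41.8 FPKM and MCT4 (SLC16A3) at 11.6, 11.6 and 10.3 FPKM. Transferrin receptor TFRC stood at 60.9, 63.5 and 62.6 FPKM, the zinc carrier SLC39A7 at 67.6 FPKM, SLC39A14 at 22 FPKM and SLC30A1 at 29.2 FPKM. The iron exporter SLC40A1 stood at 1.81, 2.06 and 1.86 FPKM. The citrate carrier of the tubule, SLC13A2, stood at 0.00850 FPKM. Across whole symbol families, 180 of 358 SLC genes, 22 of 45 ABC genes and 4 of 9 SLCO genes were detected, the highest ABC genes being ABCF1 (33.9 FPKM), ABCE1 (24.1 FPKM), ABCA1 (19.2 FPKM) and ABCC1, and the other SLCO genes SLCO3A1 (1.55 FPKM) and SLCO2A1 (1.51 FPKM).

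Of 53 receptor tyrosine kinases 21 were detected (39.6%). AXL, the receptor of GAS6, stood highest at 112, 115 and 109.5 FPKM and MET, the receptor of hepatocyte growth factor, next at 59.8, 63.6 and 61.3 FPKM. The EGF receptor EGFR, whose ligand is in the medium, stood at 36.8, 36 and 33.5 FPKM and the ephrin receptor EPHA2 at 31.4, 31.2 and 29 FPKM. The ranges of these 4 over the libraries did not overlap, so their order was the same in every library. IGF1R stood at 13.3 ± 0.452 FPKM, ERBB2 at 12.2 ± 0.396 FPKM, the collagen receptor DDR1 at 11.7 ± 0.747 FPKM, FGFR3 at 3.93 ± 0.316 FPKM and the insulin receptor INSR at 2.75 ± 0.0178 FPKM. ERBB3 stood below the threshold at 0.259, 0.255 and 0.276 FPKM and RET, the receptor of GDNF, at 0.0380 FPKM. KIT, NTRK2, EPHA8 and ROR2 were at 0 in each library.

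**Figure D5:**
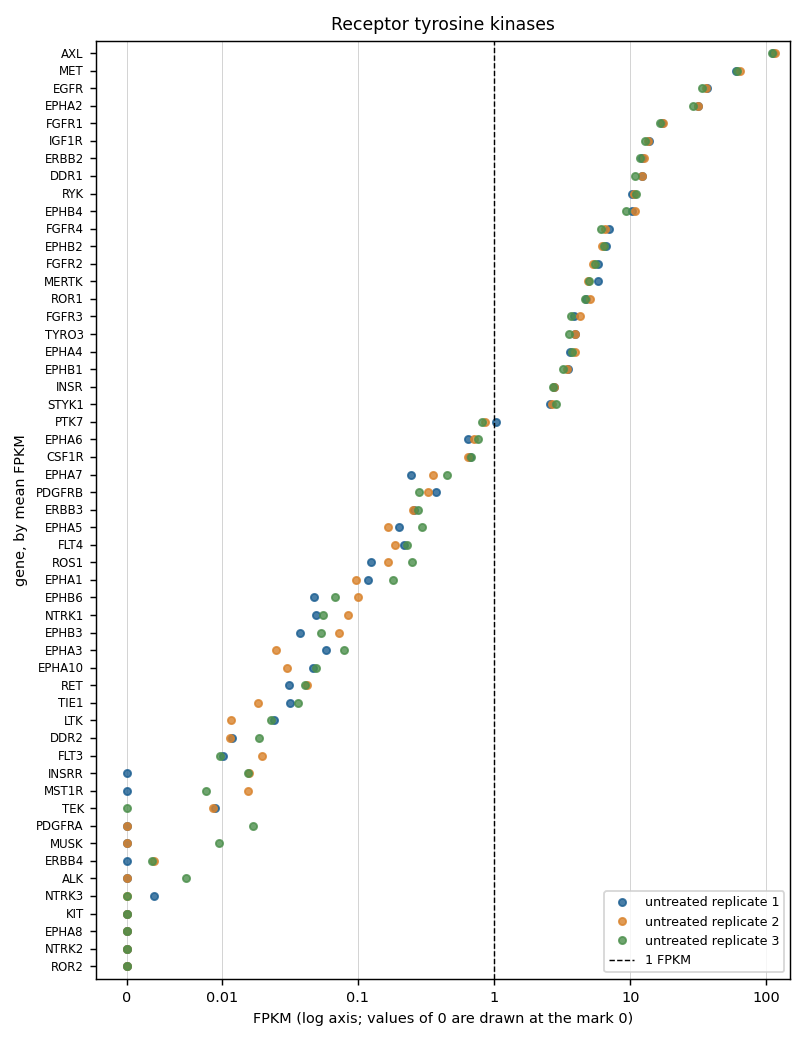
FPKM (log axis) of 53 receptor tyrosine kinase genes in the 3 untreated libraries, ordered by mean, with a dashed line at 1 FPKM and values of 0 drawn at a mark of their own. The 21 detected genes show little spread between libraries, and below 0.1 FPKM the 3 points of a gene scatter widely.

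Among G protein-coupled receptors 29 of 64 were detected. The orphan receptor GPRC5A, induced by retinoic acid, stood at 51.4, 50.8 and 50.8 FPKM, the trypsin receptor F2RL1 at 43.2, 42.3 and 44.5 FPKM and the Wnt receptor FZD6 at 33.1, 34.1 and 33.6 FPKM. The adhesion receptor ADGRG1 stood at 21.2 ± 0.841 FPKM. The thrombin receptor F2R, the lysophosphatidic acid receptor LPAR1 and the formyl peptide receptor FPR1 stood at 9.85 FPKM, 6.10 FPKM and 5.61 FPKM. The oxytocin receptor OXTR and the ATP receptor P2RY2 were just detected at 2.0 FPKM and 1.82 FPKM. Several receptors, picked here by name, did not reach the threshold in every library. The parathyroid hormone receptor PTH1R stood at 0.612, 0.488 and 0.420 FPKM, the adenosine receptor ADORA2B at 0.751, 1.02 and 1.07 FPKM, the prostaglandin receptor PTGER4 at 0.708 FPKM and the bradykinin receptor BDKRB2 at 0.382 FPKM. The angiotensin receptor AGTR1 stood at 0.0119 FPKM, the endothelin receptors EDNRA at 0.0550 FPKM and EDNRB at 0, the calcium receptor CASR at 0.00336 FPKM, and the chemokine receptors CXCR4 at 0.0302 FPKM and ACKR3 at 0. CALCRL, the receptor of adrenomedullin, stood at 0.175 FPKM.

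Receptors of cytokines were detected in 31 of 56 cases. The TNF receptor TNFRSF1A stood at 47.3, 46.1 and 46.8 FPKM, the interleukin receptor subunit IL20RB at 33.5 ± 1.27 FPKM, the oncostatin M receptor OSMR at 32.2, 32.6 and 31.3 FPKM and its signalling partner IL6ST at 16.3, 20.3 and 20.4 FPKM. IL13RA1 stood at 30.6 ± 1.33 FPKM, the death receptor TNFRSF10B at 18.3 ± 0.990 FPKM, the TWEAK receptor TNFRSF12A at 16.4 ± 1.58 FPKM and CD40 at 10.5 ± 1.11 FPKM. The interferon receptors IFNGR1 and IFNAR1 stood at 12 FPKM and 9.27 FPKM, the interleukin 1 receptor IL1R1 at 6.72 FPKM, IL4R at 3.96 FPKM and FAS at 1.87 FPKM. IL10RB stood at 0.0937 FPKM and the growth hormone receptor GHR at 0.0677 FPKM. TNFRSF11B, a decoy receptor, stood at 0.0385 FPKM. Of 10 toll-like receptors 2 were detected (0 at 2 FPKM), TLR6 (1.83, 1.98 and 1.83 FPKM) and TLR2 (1.83, 1.66 and 2.01 FPKM), with TLR3 at 0.918, 1.08 and 1.05 FPKM and TLR4, the endotoxin receptor, at 0.135, 0.164 and 0.118 FPKM. The inflammasome sensor NLRP3 stood at 0.0203 FPKM.

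Adhesion receptors and those of the TGF-beta family were detected in 46 of 52 cases with a median of 9.69 FPKM. The integrin subunits ITGB1 and ITGAV, which with others bind fibronectin and osteopontin, stood at 296, 306 and 305 FPKM and 123, 133 and 128 FPKM. ITGA3 stood at 46 ± 2.57 FPKM, and ITGB3, with 48.4% of its exon bases to itself, at 48.3 ± 0.433 FPKM. The laminin-binding subunits ITGA6 and ITGB4 stood at 2.76 ± 0.0678 FPKM and 2.91 ± 0.219 FPKM, and the collagen-binding ITGA2 was below the threshold at 0.792, 0.818 and 0.949 FPKM. The syndecans SDC4 and SDC1 stood at 136 ± 1.17 FPKM and 40.1 ± 1.15 FPKM, L1CAM at 82.7, 82.2 and 78.5 FPKM, the semaphorin receptor PLXNB2 at 55.1 FPKM and NRP1 at 23.4 FPKM. TGFBR2 stood at 43.2, 42.9 and 43.9 FPKM, TGFBR1 at 6.97, 7.47 and 6.94 FPKM, BMPR2 at 13.6 FPKM and the co-receptor TGFBR3 at 1.63 FPKM. CD44 stood at 25.4 FPKM, PLAUR at 8.29 FPKM, NOTCH2 at 18 FPKM, LRP1 at 19.3 FPKM and SCARB1 at 10.5 FPKM. The fatty acid receptor CD36 stood at 0.0154 FPKM. Of 26 integrin genes 15 were detected.

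Nuclear receptors were detected in 23 of 47 cases. NR2F2 stood highest at 19.7, 19.98 and 20.8 FPKM, followed by NR1D2 (13.3 FPKM), NR2F6 (9.84 FPKM) and the thyroid hormone receptor THRB (9.79 FPKM). The glucocorticoid receptor NR3C1 stood at 8.88, 8.90 and 9.12 FPKM. PPARD, PPARG and PPARA, sensors of fatty acids, stood at 4.83 FPKM, 4.19 FPKM and 3.62 FPKM, RXRA at 3.78 FPKM, ESRRA at 3.59 FPKM and RARG at 2.37 FPKM. The vitamin D receptor VDR lay near the threshold with 1.01, 1.28 and 1.14 FPKM. The bile acid receptor NR1H4 stood at 0.598, 0.703 and 0.855 FPKM, the oestrogen receptor ESR1 at 0.0365 FPKM and the xenobiotic receptor NR1I2 at 0.00250 FPKM.

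Of 241 genes on the lists of secreted proteins 146 were detected (60.6%), ferritin light chain FTL and some lysosomal proteases being counted among them. Matrix proteins gave 38 of 53, and together they held 6.01% of fragments, most of it on FN1. The type IV collagen chains COL4A1 and COL4A2, the framework of basement membranes, stood at 136, 146 and 125 FPKM and 84.2, 87.2 and 75 FPKM, while COL4A3, of the glomerular basement membrane, stood at 0.0374 FPKM. The laminin chains LAMC1 and LAMB1 stood at 143, 138 and 131 FPKM and 109.9, 114 and 108 FPKM, LAMA5 at 21.1 ± 2.0 FPKM, LAMA3 at 17.5 ± 0.361 FPKM and LAMB3 at 10.9 ± 0.471 FPKM. Agrin (AGRN) and perlecan (HSPG2), the heparan sulfate proteoglycans of basement membranes, stood at 64.8 ± 7.39 FPKM and 55.6 ± 7.20 FPKM, tenascin TNC at 64.2 ± 3.52 FPKM and thrombospondin THBS1 at 23.5 ± 1.17 FPKM. Of 43 collagen chain genes 18 were detected, COL8A1 (43 FPKM) and COL7A1 (27.1 FPKM) following the type IV chains.

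Growth factors gave 45 of 76 detected. The EGF receptor ligands amphiregulin (AREG) and epiregulin (EREG) stood at 101, 97.1 and 100.3 FPKM and 44.1, 45.2 and 45.4 FPKM, HBEGF at 14.2 ± 0.131 FPKM and TGFA at 7.74 ± 0.474 FPKM, while EGF itself stood at 0.833, 1.13 and 0.952 FPKM. The matricellular CCN2 stood at 85.8, 83.6 and 82.6 FPKM, granulin GRN at 87.5 ± 5.61 FPKM, TGFB2 at 77.9, 77.3 and 77.7 FPKM and TGFB1 at 28.3, 29 and 29.4 FPKM. Midkine (MDK), DKK3, IGFBP7 and IGFBP3 stood at 65.3 FPKM, 63.1 FPKM, 49.7 FPKM and 49.3 FPKM, with IGFBP6 at 20.2 FPKM and IGFBP4 at 14.3 FPKM. The cytokine LIF stood at 27.4 ± 1.12 FPKM, FGF2 at 9.94 FPKM, adrenomedullin (ADM) at 9.46 FPKM and the natriuretic peptide NPPB at 6.09 FPKM. VEGFC and VEGFA stood at 5.08 FPKM and 3.19 FPKM, angiotensinogen (AGT) at 4.26 FPKM, endothelin EDN1 at 3.81, 3.13 and 3.98 FPKM, DKK1 at 3.52 FPKM, WNT5A at 2.11 FPKM and BMP4 at 1.39 FPKM. PDGFA stood at 0.903 FPKM, FSTL1 at 0.175 FPKM and SFRP1 at 0.00568 FPKM. Erythropoietin (EPO) was at 0 FPKM in each library, which allows up to 0.0311 FPKM, and IGF1 and IGF2, with 17.6% and 25% of their exon bases to themselves, were listed at 0.00506 FPKM and 0.

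Cytokines, chemokines and complement gave 26 of 54 detected, with SPP1 the highest. The galectins LGALS1 and LGALS3 stood at 216 ± 9.90 FPKM and 34.7 ± 0.930 FPKM and LGALS3BP at 87 ± 3.54 FPKM. Complement component C3 stood at 108, 99.3 and 102 FPKM, while factor B (CFB, 54.5% of exon bases its own) stood at 0.0250 FPKM. CXCL8 stood at 81.7, 86.1 and 85 FPKM and IL6 at 68.2, 68.5 and 69.7 FPKM, whereas CXCL1, often induced with them, stood at 0.887, 0.603 and 0.746 FPKM, and IL1A, IL1B and TNF at 0.227 FPKM, 0.0180 FPKM and 0.296 FPKM. IL32, IL18 and CSF1 stood at 30.6 FPKM, 26.5 FPKM and 17.6 FPKM, CX3CL1 at 2.95 FPKM, CXCL16 at 0.630 FPKM and SLPI at 0.114 FPKM. Of 29 chemokine genes 6 were detected, CXCL2 (17 FPKM), CCL28 (4.60 FPKM) and CXCL5 (4.20 FPKM) following CXCL8. Of 29 interleukin genes 7 were detected (4 at 2 FPKM), IL11 (18.2 FPKM) being the fourth.

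Among secreted proteases, inhibitors and plasma proteins 37 of 58 were detected. This list also holds lysosomal proteases and, as its highest member, ferritin light chain FTL. The lysyl oxidase LOXL2, which crosslinks collagen, stood at 137, 128 and 122 FPKM. The calcium-binding protein CALU stood at 131 FPKM and the inhibitor TFPI2 at 77.2 ± 2.81 FPKM. The collagenase activator MMP14 stood at 49.8, 48.2 and 45.1 FPKM, matrilysin MMP7 at 34.1, 35 and 36 FPKM and collagenase MMP1 at 11, 10.2 and 11.4 FPKM, with the inhibitors TIMP1 and TIMP2 at 68.6 ± 2.84 FPKM and 37.2 ± 0.757 FPKM and TIMP3 at 0.00584 FPKM. Urokinase PLAU stood at 42.5, 44.7 and 41.7 FPKM and tissue plasminogen activator PLAT at 3.41 FPKM, SERPINE2 at 13.7 FPKM and PRSS23 at 28.2 FPKM. The lysosomal proteases CTSL, CTSB and CTSD (47.3% of exon bases its own) stood at 47.4 FPKM, 40.3 FPKM and 42.5 FPKM. Beta 2 microglobulin (B2M) stood at 54.3 ± 1.14 FPKM, cystatin C (CST3) at 24.7 ± 0.580 FPKM, APOE at 19.4 ± 1.88 FPKM and QSOX1 at 17.3 FPKM. The inhibitors SPINT1 and SPINT2 stood at 9.38 FPKM and 9.03 FPKM, tissue factor F3 and its inhibitor TFPI at 8.73 FPKM and 7.75 FPKM. Transferrin (TF) stood at 0.00260 FPKM.

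Of 38 keratins 6 were detected: KRT19 stood at 203 FPKM, KRT8 at 80.4 ± 4.23 FPKM, KRT80 at 39.8 ± 1.95 FPKM, KRT18 at 38.2 ± 1.76 FPKM, KRT10 at 4.52 FPKM and KRT7 at 1.71 FPKM. KRT8 and KRT18 form the filament pair of simple epithelia. Of 20 claudins 6 were detected, and 11 at 1 TPM, with CLDN11 (48.1, 45.8 and 48.6 FPKM) and CLDN12 (15 FPKM) lying between CLDN1 and CLDN2. CLDN11, the barrier claudin of myelin and of Sertoli cells, was the second claudin in every library.

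Genes with no fragment in any library numbered 6714 of 38126 gene IDs, 1282 of them protein-coding (7.23%). With those at 0 included, 4542 protein-coding genes had a mean below 0.1 FPKM. A listed 0 is less firm where most exon bases are shared. Among protein-coding genes that share every exon base with another gene, 0 of 81 were detected and 49.4% were at 0. With up to 20% of bases of their own 2 of 239 were detected, and from above 20% to 50% it was 93 of 419. Above 50%, with some bases still shared, it was 4874 of 7443 (65.5%, with 3.53% at 0), and where no base was shared 5373 of 9554 (56.2%, with 9.28% at 0). The share detected was thus lowest in the classes with up to 50% of bases of their own. It was highest in the class above 50% and lower again, at 56.2%, in genes that share none. The cytokine MIF, which most cells express, was at 0 FPKM in each library with 38.1% of its exon bases to itself, and the ribosomal protein gene RPS10 stood at 1.05, 1.33 and 0.974 FPKM while the median of 76 ribosomal protein genes was 109 FPKM. Low values of CD68 (0.0259 FPKM, 14.2% of exon bases its own), IFNAR2 (0.615 FPKM, 16.8%) and TERC (at 0, 19%) carry the same limit. Zeros on long genes with exons of their own were tighter, such as 0.00451 FPKM allowed for PTPRC, 0.00783 FPKM for SLC6A19 and 0.00607 FPKM for COL3A1.

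The 3 libraries were close to each other in expressed genes. Among 3767 protein-coding genes with a mean of at least 10 FPKM, the median coefficient of variation was 3.57%, the 90th percentile was 7.47%, and 1 gene lay above 25%. Across the 31412 genes above 0, Pearson's r of log2(FPKM + 0.1) was 0.964 to 0.965 for the 3 pairs of libraries, given as a description, since genes are not independent replicates. The 10 protein-coding genes with the largest variation were GOLGB1, RAB5IF, CENPF, RANBP2, TPR, RB1CC1, ZNF638, SMC2, KTN1 and THOC2, with coefficients of 17.5% to 25.04%. All 10 were lowest in replicate 1, for example the Golgi protein GOLGB1 with 7.27, 12 and 11.3 FPKM and the mitotic protein CENPF with 14.2, 22.7 and 19.9 FPKM. Of 320 genes with a merged exon length of 10 kb or more, 98 were highest in replicate 1, 178 in replicate 2 and 44 in replicate 3. For 374 genes under 2 kb these counts were 136, 141 and 97. The median coefficient of variation was 4.01% in the long genes and 4.40% in the short ones. The part of transcript length in these differences was not tested.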

How the data were processed

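RNA-seq values of the 3 libraries labelled untreated were analysed, and those of 3 treated libraries were not used. The authors deposited FPKM per Ensembl gene ID, 1 file a library. Per the submitters' processing notes, the build was GRCh38 and the tools were HISAT2 2.1.0, featureCounts 1.6.0, Trimmomatic 0.38, DESeq2 1.22.1, FastQC, MultiQC and CASAVA, whose roles they do not state. For the gene annotation, strand and fragments on several genes, the settings were not given in the sources used here. Symbols matched 37892 of 38126 IDs. Coordinates, gene types, merged exon lengths and overlaps came from GENCODE 29, and 2215 of its protein-coding genes have no values among those used and were not analysed here (KCNJ1 and AQP2 among them).

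FPKM times length fell on whole multiples of 1 step per library, which gave the totals. Of 31412 genes above 0, 77.7% gave whole fragments within 0.05 in every library at the merged exon length, and 22.2% at the nearest length that did (within 0.002 where one existed). Fragments of the latter are estimates. The recovered fragments summed to 100.003%, 99.998% and 99.998% of the totals. The recovery was tried on simulated data in which lengths were off by much less than the search allows. Genes with a length further off were not covered by it. Limits from a count of 0 are 3 fragments over the 3 libraries and cover counting error only.

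The design describes 1 group, so no test was made: lists are given as counts, medians and per-library values, beside the same for all genes. The 36 lists, 12 symbol families, thresholds and the rule for named genes (the 30 highest nuclear protein-coding genes, the highest mitochondrial ones, defining and 4 highest list members, 4 highest family members, the 10 most variable genes) were chosen with earlier results of these data known. Genes named beyond the rule and 6 further families were picked once values were known. Levels of some list members are not reported here. Alternatives were other thresholds, TPM (FPKM rescaled to a sum of 1000000), fragments, and leaving out each library. Python 3.11.15, numpy 2.4.6, pandas 2.3.3 and matplotlib 3.10.9 were used.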

Additional observations from a re-analysis of the deposited data

How the results depend on the processing

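The number of genes detected was 11448, and it lay between 9470 at 2 FPKM and 15119 at 1 TPM. At 0.5 FPKM it was 13349, with a mean of 1 FPKM 12058, and with 10 fragments in each library 15086. For protein-coding genes the same alternatives gave 8931 to 12760 beside 10342. Leaving out each library in turn gave 11601 to 11695 genes. Of 54 lists and families, 10 moved by more than 1.5 times in their count with TPM, 6 at 2 FPKM, 5 at 0.5 FPKM, 1 with the mean and 1 without replicate 3. The 30 highest nuclear protein-coding genes shared 29 or 30 genes with the order by the median or without any 1 library. Values that depend on the scale moved more. The 10 highest genes held 23.6% of FPKM, 6.96% of fragments, and 8.86% where mitochondrially encoded genes were left out, and without 1 library 22.6% to 24.9% of FPKM. Mitochondrially encoded genes held 7.83% of fragments (29% of FPKM), ribosomal protein genes 3.13% (4.09%) and long noncoding RNA genes 0.959% (1.61%), since shares of FPKM weigh genes per length. Genes listed at 0 numbered 6714, and 16480 had a mean below 0.1 FPKM (1282 and 4542 for protein-coding genes). Without 1 library, 8426 to 8593 genes were at 0. Pearson's r between libraries was 0.965 on average with FPKM and 0.930 with TPM, where the same pseudocount shrinks low genes less. Depth limits genes below about 0.1 FPKM, where 1 fragment moves a value visibly, and shared exons limit others. No paired analysis was possible because 1 group is described and no comparison was tested.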

Other observations

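Genes outside the lists included some with a known role in other tissues, chosen here after their values were seen. IGFN1, a gene of skeletal muscle, stood at 133, 179 and 141 FPKM, replicate 2 being the highest. Sarcolipin (SLN), a regulator of the muscle calcium pump, stood at 59.2, 61.4 and 66.2 FPKM. The deubiquitinase UCHL1, abundant in neurons, stood at 291, 286 and 281 FPKM, and EEF1A2, the elongation factor form of muscle and neurons, at 177 ± 7.32 FPKM beside 1749 FPKM for EEF1A1. The imprinted gene PEG10, which derives from a retrotransposon, stood at 152 ± 3.30 FPKM. GFRA1, the co-receptor through which GDNF acts on RET, stood at 86.2, 83.7 and 82 FPKM, while RET itself stood at 0.0380 FPKM. The neurotrophin BDNF stood at 16.4 ± 0.595 FPKM, the BMP antagonists GREM1 and CHRDL1 at 34.9 ± 0.562 FPKM and 67.6 ± 1.57 FPKM, and the phospholipase PLCB4 at 69.3, 94.8 and 95.1 FPKM, replicate 1 being the lowest. NNMT, which methylates nicotinamide, stood at 151 ± 4.68 FPKM. HKDC1, a hexokinase, stood at 90.04 ± 3.59 FPKM.

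The members of 6 further families, added after the data were seen, were unequal in level. Among metallothioneins, which bind zinc and copper, 7 of 9 were detected, and MT1E stood at 206, 186 and 181 FPKM next to 469 FPKM for MT2A, with MT1M at 28.2 FPKM and MT1F at 25.4 FPKM. Of 15 S100 genes 8 were detected, led by S100A11 at 296 ± 15 FPKM, S100A6 and S100A10 at 210.0 ± 2.56 FPKM, with S100A16 at 72.5 FPKM. Of 12 annexins 9 were detected, led by ANXA5 (181 ± 5.04 FPKM), ANXA2 and ANXA7 (47.7 FPKM). Of 12 laminin chains 9 were detected, and of the alpha chains LAMA5, LAMA3 and LAMA1 (8.28 FPKM) were present while LAMA4 stood at 0.00500 FPKM. Of 22 matrix metalloproteinases 6 were detected (10 at 1 TPM), the membrane-bound MMP24 (41.7, 37.6 and 38.4 FPKM) lying between MMP14 and MMP7. Of 27 serpins 12 were detected, the collagen chaperone SERPINH1 standing at 72.7 ± 1.69 FPKM.

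Long noncoding RNA genes gave 525 of 9579 detected (5.48%), and 3 reached 100 FPKM in each library. MALAT1, a nuclear RNA, stood at 179.6, 221 and 207 FPKM. The other two have no symbol: ENSG00000281181 (chromosome 21, 8437629 to 8438551) stood at 275, 519 and 581 FPKM and ENSG00000280614 (chromosome 21, 8393419 to 8394341) at 219, 219.9 and 421 FPKM, the former being lowest in replicate 1 and the latter highest in replicate 3. Their spread was larger than that of any of the 10 most variable protein-coding genes, with coefficients of variation of 35.3% and 40.7%. For these genes without a symbol, the noncoding type is that of the annotation. Which RNA their fragments came from was not tested.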
